A study of Mus musculus with 239 samples.

Results

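The cells described are luminal epithelial cells of the virgin mouse mammary gland, chosen by their level of Esr1, the gene of oestrogen receptor alpha. Of 54 virgin luminal cells, 33 had Esr1 at 1 FPKM or more (Esr1-positive) and 21 had less (Esr1-negative); the series holds 239 cells. FPKM is a fragment number corrected for the length of the transcript and the size of the library. All 54 came from virgin FVB females of 3 to 4 months, whose haematopoietic and endothelial cells had been depleted and whose luminal cells had been sorted as CD24 high and CD29 low and captured on Fluidigm C1 chips. The series' other cells, used for levels only, were 49 luminal cells of mice at day 12 of pregnancy (12.5 in the protocol) and 136 basal cells, 34 of them of virgin mice and the others of pregnant mice, all FVB of 3 to 4 months. No genetic change or drug is named for any group. No label gives the mouse, chip or day of a cell, so neither class has replicates. Differences are described and not tested, and an SD gives the spread among cells.

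In the mammary gland, oestrogen and progesterone act directly on a subset of luminal cells that carry their receptors, often called hormone-sensing cells. These cells relay the signal to their neighbours through secreted ligands, among them amphiregulin, which binds the EGF receptor. Luminal cells without the receptors include the progenitors of the milk-secreting alveoli, which are known for the transcription factor ELF5, the receptor KIT and early transcription of milk protein genes.

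Esr1 itself chose the classes and is given as a description only. Its level was lowest at 1.20, median 39.8 and highest 158 FPKM in Esr1-positive cells, and lowest at 0, median 0.0318 and highest 0.856 FPKM in Esr1-negative cells. The cells just inside the threshold had 1.20 and 1.41 FPKM and those just outside had 0.856 and 0.716 FPKM. Low FPKM values come in equal steps, each worth 1 fragment, which gave the fragments behind each level. Esr1-positive cells had 32 to 10337 Esr1 fragments, with a median of 3169. Of the Esr1-negative cells, 5 had no Esr1 fragment and 16 had 1 to 56. The name Esr1-negative therefore stands for a low level, and most of these cells were not at 0.

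Depth, read from the same steps, was 2.68 to 28.5 M fragments (median 8.88; M for mega) in Esr1-positive cells and 1.17 to 11.1 M (median 8.29) in Esr1-negative cells. The number of genes at 1 FPKM or more was 2316 to 5978 (median 3912) in Esr1-positive cells and 1081 to 4229 (median 3485) in Esr1-negative cells. The 10 most abundant genes took up 10.4% of all FPKM in the median Esr1-positive cell and 17.1% in the median Esr1-negative cell. Krt8, Krt18 and Krt19, the keratins of simple epithelium, and Epcam reached 1 FPKM in 54 of 54 cells. The basal markers Krt5 and Trp63 stayed below 1 FPKM in all 54, but 2 of 5 basal markers reached it in each class. The 5 together summed to 10 FPKM or more in 2 of 33 Esr1-positive and 7 of 21 Esr1-negative cells. Of 8 endothelial markers 0 reached 1 FPKM in either class, and 6 were at 0 in every cell.

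Differences are Esr1-positive minus Esr1-negative, taken between class means of log2(FPKM + 1), and a gene was counted as higher or lower where this reached 1 in size. Compared were the 6711 genes that reached 1 FPKM in 10 cells or more of the 54. Of these, 1070 were higher (15.9%) and 330 were lower (4.92%), with a median difference of 0.27. Over these genes 67% of differences were above 0, so list values below are read beside that median. The sets are unlike, however, since list counts and medians also cover members found in too few cells to be compared. The differences of those members all lay between the thresholds. Among cells alike in gene number, those with 3374 to 4137 genes (14 Esr1-positive and 12 Esr1-negative), the counts were 654 higher and 486 lower of 3985 genes, that is 57.4% of calls higher in place of 76.4%, with a median of 0.08. Shares of cells are given with exact 95% Clopper-Pearson intervals, which cover counting error only.

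The given hormone-sensing markers separated the classes in most cells. They were chosen with earlier results of these data known, so their direction is no independent evidence. Cited1, the gene of a transcriptional co-activator of the oestrogen receptor (GRCm38 chromosome X, 102247381 to 102252181), was lowest at 1.22, median 343 and highest 5054 FPKM in Esr1-positive cells, and lowest at 0, median 0.228 and highest 451 FPKM in Esr1-negative cells. It reached 1 FPKM in 33 of 33 Esr1-positive cells and in 5 of 21 Esr1-negative cells (23.8%, interval 8.22 to 47.2%). Its mean was 8.16 ± 1.89 in Esr1-positive and 1.19 ± 2.51 in Esr1-negative cells on the log2 scale (SD over 33 and 21 cells), a difference of 6.96. The classes overlapped through a few cells: 2 Esr1-negative cells had more than 100 FPKM of Cited1.

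Ptn encodes pleiotrophin, a secreted heparin-binding growth factor (chromosome 6, 36714929 to 36810220). Its level was lowest at 55, median 876 and highest 4470 FPKM in Esr1-positive cells, and lowest at 0.214, median 6.10 and highest 1266 FPKM in Esr1-negative cells, a difference of 6.95. Every Esr1-positive cell was above the median of the Esr1-negative cells, and 19 of 21 Esr1-negative cells were below the lowest Esr1-positive cell. Wfdc2, the gene of a secreted protein with whey acidic protein domains (chromosome 2, 164562413 to 164568510), was lowest at 1.06, median 685 and highest 5219 FPKM in Esr1-positive cells, and lowest at 0, median 2.05 and highest 630 FPKM in Esr1-negative cells, a difference of 6.01. Ly6d, the gene of a membrane-anchored protein of the Ly6 family (chromosome 15, 74762056 to 74763620), was the least exclusive of the 4. It was lowest at 0.368, median 801 and highest 14148 FPKM in Esr1-positive cells, and lowest at 0, median 3.14 and highest 916 FPKM in Esr1-negative cells, where 17 of 21 cells reached 1 FPKM. Its difference was 4.76. The highest Esr1-positive levels of Cited1, Ptn and Ly6d all belonged to cell number 46. The depth of that cell, 2.68 M fragments, was the lowest of its class. The next highest levels were 839 FPKM of Cited1, 2894 FPKM of Ptn and 3696 FPKM of Ly6d.

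**Figure D1:**
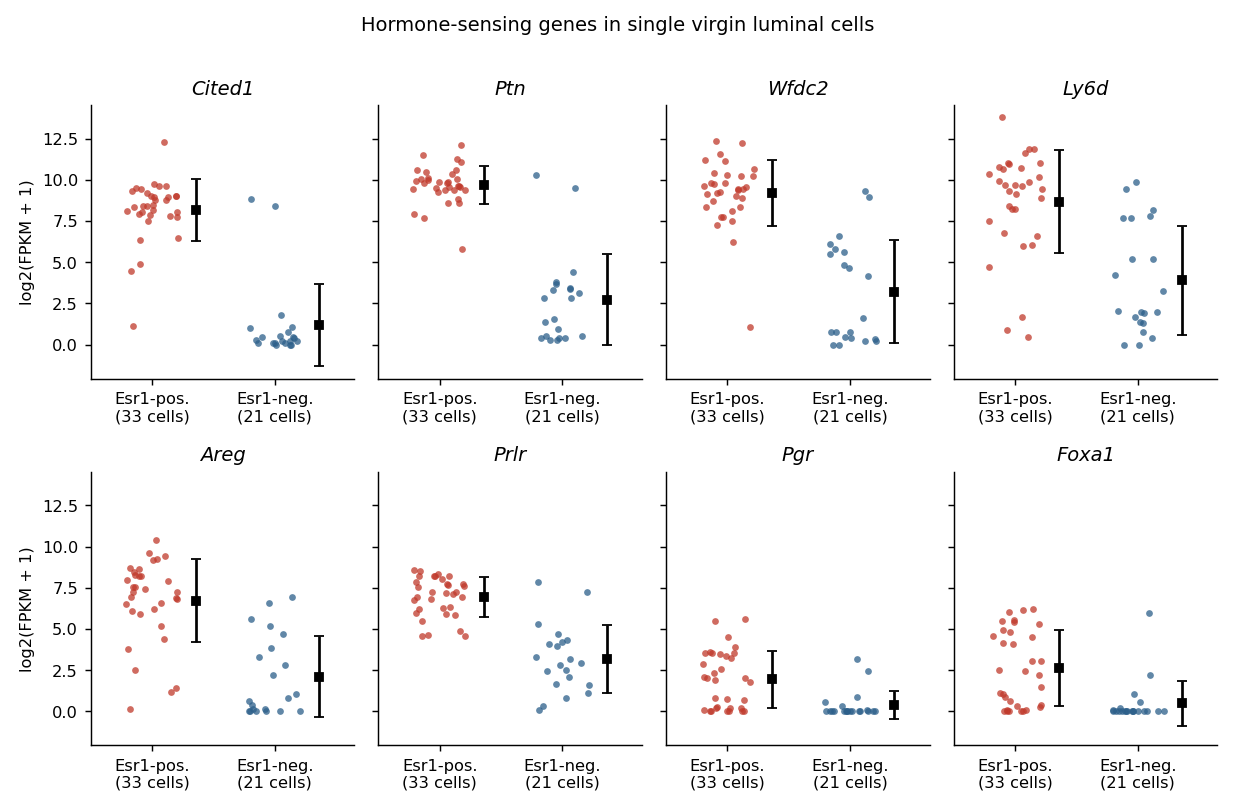
Level of 8 hormone-sensing genes, as log2(FPKM + 1) on the vertical axis, in each of 33 Esr1-positive and 21 Esr1-negative virgin luminal cells (points); squares and bars give the mean and SD over cells. Cited1 and Ptn show nearly separate classes, with 3 (Cited1) and 2 (Ptn) Esr1-negative cells within the Esr1-positive range, while Pgr and Foxa1 are at or near 0 in part of the Esr1-positive cells.

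The promoters of the leading genes are shown because these genes differed together, and the data hold no measurement of binding there. Sequences are RefSeq's for GRCm38.p6, from 250 bases before to 50 after the start, and the table had an entry for 13 of the 15 genes with the largest excess and for 8 of the 15 with the largest deficit. For each gene 1 promoter was read, though 3 were listed for Cited1 and 2 each for Wfdc2, Tph1 and Cp. Capitals mark GGTCA (on either strand, so TGACC too), the core of an oestrogen response element, and TATAAA on the gene's strand. The first 4 sequences belong to genes higher in Esr1-positive cells and the others to genes lower in them.
Cited1 (chrX:102252132-102252431, minus strand): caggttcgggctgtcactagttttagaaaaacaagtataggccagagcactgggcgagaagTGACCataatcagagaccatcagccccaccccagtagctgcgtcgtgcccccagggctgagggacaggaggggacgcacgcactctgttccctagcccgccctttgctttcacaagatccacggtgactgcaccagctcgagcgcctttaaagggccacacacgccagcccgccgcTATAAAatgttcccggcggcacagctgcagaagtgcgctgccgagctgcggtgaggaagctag
Ptn (chr6:36810130-36810429, minus strand): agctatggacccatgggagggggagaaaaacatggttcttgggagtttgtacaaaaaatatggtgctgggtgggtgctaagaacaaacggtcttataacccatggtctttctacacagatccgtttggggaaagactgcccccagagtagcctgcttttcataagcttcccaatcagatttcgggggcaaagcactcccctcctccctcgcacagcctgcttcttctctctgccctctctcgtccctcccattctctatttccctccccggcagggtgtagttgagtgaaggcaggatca
Wfdc2 (chr2:164562465-164562764, plus strand): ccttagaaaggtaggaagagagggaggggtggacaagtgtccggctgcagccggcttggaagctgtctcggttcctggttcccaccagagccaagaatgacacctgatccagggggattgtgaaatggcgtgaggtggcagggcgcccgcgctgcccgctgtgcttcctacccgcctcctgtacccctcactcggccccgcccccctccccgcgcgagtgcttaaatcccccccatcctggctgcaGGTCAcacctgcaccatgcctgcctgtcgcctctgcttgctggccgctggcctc
Areg (chr5:91139349-91139648, plus strand): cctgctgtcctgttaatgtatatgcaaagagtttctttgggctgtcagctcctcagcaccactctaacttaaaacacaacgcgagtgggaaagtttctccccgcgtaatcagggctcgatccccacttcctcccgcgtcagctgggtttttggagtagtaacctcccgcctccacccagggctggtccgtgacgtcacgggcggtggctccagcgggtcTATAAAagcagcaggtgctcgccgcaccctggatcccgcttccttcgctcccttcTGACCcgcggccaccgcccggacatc
Lcn2 (chr2:32387690-32387989, minus strand): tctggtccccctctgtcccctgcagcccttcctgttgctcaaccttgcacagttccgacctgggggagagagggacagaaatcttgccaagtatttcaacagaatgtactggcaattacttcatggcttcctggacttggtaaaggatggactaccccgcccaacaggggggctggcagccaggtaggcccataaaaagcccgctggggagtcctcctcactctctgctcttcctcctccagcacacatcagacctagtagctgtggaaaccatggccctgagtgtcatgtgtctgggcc
Wfdc18 (chr11:83708754-83709053, plus strand): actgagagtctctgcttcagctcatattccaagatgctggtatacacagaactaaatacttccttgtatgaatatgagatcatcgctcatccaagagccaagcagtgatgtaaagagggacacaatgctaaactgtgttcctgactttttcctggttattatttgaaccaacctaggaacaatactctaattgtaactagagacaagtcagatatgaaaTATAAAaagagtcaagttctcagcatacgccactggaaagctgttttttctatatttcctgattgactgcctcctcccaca
GGTCA was found in 7 of the 13 promoters of the higher genes and in 3 of the 8 of the lower genes, against 40.2% of all 27025 promoters and 37.4% of the 5228 that belong to compared genes. The full element GGTCANNNTGACC, which holds GGTCA on both strands, is in 0.0666% of all promoters and was in 0 of these 21. TGTTTAC, a forkhead motif read on both strands, is in 3.55% of all promoters and TTCNNNGAA, the STAT5 motif, in 8.47%, and neither was in any of the 21. TGANTCA, the AP-1 motif, is in 7.93% and was found in F3 among the higher and Cp among the lower genes. TATAAA is in 8.88% of all promoters and was found in Cited1 and Areg among the higher genes and in Wfdc18 among the lower. These are matches of letters within a short window.

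Hormone receptor genes other than Esr1 were also higher in Esr1-positive cells, but less evenly. Of the 12 genes of the list of hormone receptors and cofactors, 5 were higher by at least 1 and 1 was lower, with a median of 0.52. With pseudocount 10 in place of 1, 3 were higher and 0 lower, with a median of 0.29. Prlr, the prolactin receptor gene (chromosome 15, 10177238 to 10349180), was lowest at 22.5, median 146 and highest 386 FPKM in Esr1-positive cells, and lowest at 0.0434, median 6.57 and highest 232 FPKM in Esr1-negative cells, a difference of 3.78. Its lowest Esr1-positive cell exceeded 17 of 21 Esr1-negative cells. Pgr, the progesterone receptor gene (chromosome 9, 8899833 to 8968611), was low in both classes, with a median of 3.02 and a maximum of 47 FPKM in Esr1-positive cells and a median of 0 and a maximum of 7.92 FPKM in Esr1-negative cells. It reached 1 FPKM in 57.6% of Esr1-positive cells (19 of 33, interval 39.2 to 74.5%) and in 9.52% of Esr1-negative cells (2 of 21, interval 1.17 to 30.4%), and its difference was 1.60.

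Foxa1, the gene of a forkhead factor that opens chromatin for the oestrogen receptor (chromosome 12, 57540628 to 57546916), reached 1 FPKM in 21 of 33 Esr1-positive cells (63.6%, interval 45.1 to 79.6%) and in 3 of 21 Esr1-negative cells (14.3%, interval 3.05 to 36.3%), with a difference of 2.15. Tbx3, the gene of a T-box factor needed for mammary development (chromosome 5, 119670669 to 119684724), had medians of 14.1 FPKM in Esr1-positive and 0.0224 FPKM in Esr1-negative cells and differed by 3.60. Of the Esr1-positive cells 25 of 33 were above the highest Esr1-negative cell, which had 8.30 FPKM. Nr3c1, the glucocorticoid receptor gene, was the lower member, at -1.0. At pseudocount 10, Pgr differed by 0.50 and Foxa1 by 0.82, both below the threshold. Esr2 (0.08) and Greb1 (0.11), the genes of oestrogen receptor beta and an oestrogen-induced co-factor, were between the thresholds, and Greb1 reached 1 FPKM in too few cells to be compared.

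Ligand genes of hormone-sensing cells were higher in 5 of 10 cases and lower in 0, with a median of 1.04. Of the 10 genes 6 were compared, and the 5 higher ones were among these. Areg, the amphiregulin gene (chromosome 5, 91139599 to 91148432), was lowest at 0.0969, median 152 and highest 1352 FPKM in Esr1-positive cells, and lowest at 0, median 0.773 and highest 120 FPKM in Esr1-negative cells, a difference of 4.61. It reached 1 FPKM in 32 of 33 Esr1-positive and 10 of 21 Esr1-negative cells. The other higher members were Ptn, the calcitonin gene Calca (1.89), and the Wnt ligand genes Wnt5a (1.88) and Wnt4 (1.57). With pseudocount 10 in place of 1, 2 of the 10 were higher and the median was 0.35. Calca then differed by 0.92 and Wnt5a by 0.73. Calca was patchy: it reached 1 FPKM in 15 of 33 Esr1-positive and 3 of 21 Esr1-negative cells, with maxima of 409 FPKM in Esr1-positive and 429 FPKM in Esr1-negative cells. Tnfsf11, the gene of the progesterone-induced ligand RANKL, differed by 0.41 and reached 1 FPKM in 6 of 33 Esr1-positive and 1 of 21 Esr1-negative cells.

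Genes known as oestrogen targets in human breast cancer cells were mostly between the thresholds, with 3 of 15 higher, 1 lower and a median of 0.17. The higher members were Areg, Stc2, the gene of the secreted glycoprotein stanniocalcin 2 (2.85), and Pgr. Stc2 had medians of 18.5 FPKM in Esr1-positive and 0.0651 FPKM in Esr1-negative cells. Myc was the lower member, at -1.07.

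Among surface and secreted markers of hormone-sensing cells, a list drawn up with earlier results of these cells known, 13 of 13 were higher, with a median of 4.50; its direction is no independent evidence. F3, the tissue factor gene that starts blood coagulation (chromosome 3, 121723537 to 121735048), was lowest at 13.1, median 901 and highest 5046 FPKM in Esr1-positive cells, and lowest at 0.289, median 12.9 and highest 523 FPKM in Esr1-negative cells. No Esr1-negative cell was above the median of Esr1-positive cells, and the difference was 5.10. S100a6, the gene of a calcium-binding protein, had medians of 740 FPKM in Esr1-positive and 36.5 FPKM in Esr1-negative cells (4.81). Phyh, the gene of a peroxisomal hydroxylase of branched fatty acids, had medians of 185 FPKM in Esr1-positive and 0.332 FPKM in Esr1-negative cells (5.10). Gpx3, the gene of secreted glutathione peroxidase, had medians of 349 FPKM in Esr1-positive and 0.319 FPKM in Esr1-negative cells (4.50).

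The remaining genes of the 15 with the largest excess were Tspan1 (5.49), Fgg (5.29), Gipc2 (5.10), Tph1 (4.70), Capsl (4.70) and Tspan13 (4.62). Gipc2, the gene of a PDZ-domain protein (chromosome 3, 152093533 to 152166230), separated the classes best of these 6, with a lowest level of 0.396, a median of 53.3 and a highest of 300 FPKM in Esr1-positive cells, against a lowest of 0, a median of 0 and a highest of 7.35 FPKM in Esr1-negative cells. Of the Esr1-positive cells 28 of 33 were above the highest Esr1-negative cell. Tspan1, a tetraspanin gene, reached 1 FPKM in 30 of 33 Esr1-positive and 2 of 21 Esr1-negative cells. Fgg encodes the gamma chain of fibrinogen, a plasma protein made chiefly by liver, and reached 1 FPKM in 26 of 33 Esr1-positive cells, with a maximum of 5684 FPKM, and in 4 of 21 Esr1-negative cells, with a maximum of 115 FPKM. Fga, the gene of the alpha chain, was listed at 0 in all 54 cells.

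Tph1, the gene of tryptophan hydroxylase, the rate-limiting enzyme of serotonin synthesis outside the brain, was lowest at 0.0214, median 91.9 and highest 1007 FPKM in Esr1-positive cells, and lowest at 0, median 0.0699 and highest 821 FPKM in Esr1-negative cells. Its high Esr1-negative values came from few cells, since 2 of 21 were above the median of the Esr1-positive cells. Capsl, a gene of a calcyphosine-like calcium-binding protein, depends on the summary used. It had medians of 114 FPKM in Esr1-positive and 0 FPKM in Esr1-negative cells, but 1 Esr1-negative cell, number 15, had 14566 FPKM, so the mean was 185 FPKM in Esr1-positive and 715 FPKM in Esr1-negative cells. The log2 ratio of mean FPKM was -1.95, opposite in sign to the difference of 4.70. Cell 15 had the fewest genes of all 54 cells, 1081, and a depth of 1.17 M fragments.

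Genes of luminal progenitors were lower in Esr1-positive cells in 11 of 15 cases and higher in 0, with a median of -2.25. With pseudocount 10 in place of 1, 7 were lower and the median was -0.82. This list too was drawn up with earlier results of these data known, so its direction is no independent evidence. Lcn2, the gene of the iron-scavenging secreted protein lipocalin 2 (chromosome 2, 32384633 to 32388252), was lowest at 0.663, median 51.6 and highest 8056 FPKM in Esr1-positive cells, and lowest at 1.80, median 4841 and highest 21900 FPKM in Esr1-negative cells, a difference of -5.31. The classes overlapped: 3 of 33 Esr1-positive cells were above the median of the Esr1-negative cells. Wfdc18, the gene of a secreted protein with a whey acidic protein domain (chromosome 11, 83709015 to 83711348), was lowest at 1.29, median 57.9 and highest 9002 FPKM in Esr1-positive cells, and lowest at 11.9, median 3388 and highest 27405 FPKM in Esr1-negative cells, a difference of -4.61. Trf, the transferrin gene, had medians of 76.5 FPKM in Esr1-positive and 6130 FPKM in Esr1-negative cells (-4.48), and Cd14, the gene of a co-receptor for bacterial lipopolysaccharide, had medians of 5.52 FPKM in Esr1-positive and 404 FPKM in Esr1-negative cells (-3.64).

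Elf5 and Kit, the regulators by which progenitors are often identified, were found in part of the cells. Elf5 (chromosome 2, 103411688 to 103450989) reached 1 FPKM in 4 of 33 Esr1-positive cells (12.1%, interval 3.40 to 28.2%) and in 10 of 21 Esr1-negative cells (47.6%, interval 25.7 to 70.2%), with a difference of -1.74. It was at 10 FPKM or more in 2 Esr1-positive and 8 Esr1-negative cells. Kit (chromosome 5, 75574916 to 75656722) reached 1 FPKM in 2 of 33 Esr1-positive cells (6.06%, interval 0.743 to 20.2%) and in 12 of 21 Esr1-negative cells (57.1%, interval 34 to 78.2%), with maxima of 8.23 FPKM in Esr1-positive and 98.2 FPKM in Esr1-negative cells and a difference of -2.13. Of the 21 Esr1-negative cells 4 had both genes below 1 FPKM, numbers 11, 15, 19 and 26, while Wfdc18 reached 1 FPKM in 21 of 21. With pseudocount 10 in place of 1, Elf5 differed by -0.72 and Kit by -0.82.

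**Figure D2:**
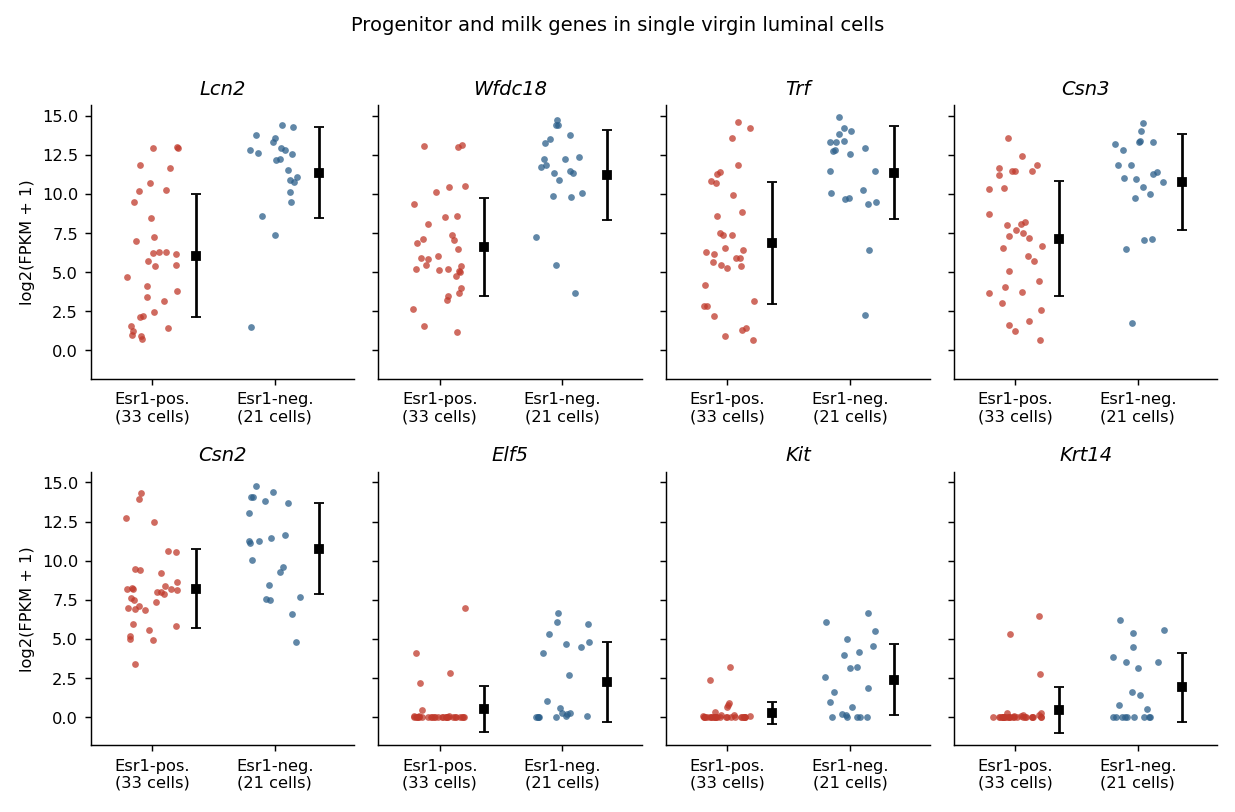
Level of 8 genes of progenitors, milk proteins and basal cells, as log2(FPKM + 1) on the vertical axis, in each of 33 Esr1-positive and 21 Esr1-negative virgin luminal cells (points); squares and bars give the mean and SD over cells. Lcn2, Wfdc18, Trf and Csn3 are detected in most cells of both classes and lie higher in Esr1-negative cells, while Elf5, Kit and Krt14 are at or near 0 in most Esr1-positive cells.

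Milk protein genes were transcribed in virgin cells of both classes, at lower levels in Esr1-positive cells: 6 of 10 were lower and 0 higher, with a median of -2.10. Csn3, the kappa-casein gene (chromosome 5, 87925579 to 87932665), was lowest at 0.567, median 160 and highest 12393 FPKM in Esr1-positive cells, and lowest at 2.40, median 2505 and highest 23986 FPKM in Esr1-negative cells, a difference of -3.64. Csn2, the beta-casein gene, reached 1 FPKM in 54 of 54 cells, with medians of 260 FPKM in Esr1-positive and 2424 FPKM in Esr1-negative cells (-2.57). Csn1s2a differed by -2.85, Csn1s1 by -2.81 and Spp1, the osteopontin gene, by -2.11. By log2 ratio of mean FPKM 7 of the 10 were lower and 2 higher. In the main comparison the milk genes Wap, of whey acidic protein, and Glycam1 hardly differed, at 0.01 and 0.07. Wap had means of 3.73 ± 3.90 in Esr1-positive and 3.72 ± 3.81 in Esr1-negative cells on the log2 scale. Its highest cells had 26456 FPKM in the Esr1-positive and 3380 FPKM in the Esr1-negative class.

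Milk fat and lipid droplet genes had 5 of 18 lower and 0 higher, with a median of -0.61. Plin2, the gene of the lipid droplet coat protein perilipin 2, had medians of 6.35 FPKM in Esr1-positive and 442 FPKM in Esr1-negative cells (-3.85). Scd1, the stearoyl-CoA desaturase gene, differed by -3.22, the lipogenesis regulator gene Thrsp by -2.32, Xdh by -1.15 and Acaca, the acetyl-CoA carboxylase gene, by -1.05. Xdh, the gene of xanthine dehydrogenase, reversed with the summary, since its log2 ratio of mean FPKM was 1.30.

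The other genes of the 15 with the largest deficit, beyond Lcn2, Wfdc18, Trf, Plin2, Csn3 and Cd14, carried varied functions. Ldhb, the gene of a lactate dehydrogenase subunit, reached 1 FPKM in 10 of 33 Esr1-positive and 17 of 21 Esr1-negative cells (-4.07). Efna5, the gene of an ephrin ligand, was found mainly in the Esr1-negative class, at 1 FPKM in 2 of 33 Esr1-positive and 14 of 21 Esr1-negative cells (-3.59). Plscr2, a phospholipid scramblase gene, reached 1 FPKM in 3 of 33 Esr1-positive and 14 of 21 Esr1-negative cells (-3.67). The others were the mucin gene Muc15 (-3.94), the ferroxidase gene Cp (-3.57), Igfbp5, the gene of a binding protein of insulin-like growth factors (-3.45), the lactadherin gene Mfge8 (-3.42), the carbonic anhydrase gene Car2 (-3.34) and the cathepsin gene Ctsh (-3.34).

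Single cells did not always follow their class. The marker sets counted here were chosen with earlier results of these data known. At 10 FPKM or more, all 4 of Cited1, Ly6d, Ptn and Wfdc2 were found in 29 of 33 Esr1-positive and 2 of 21 Esr1-negative cells. Of Elf5, Kit, Wfdc18 and Plet1 at the same level, 3 or 4 were found in 2 of 33 Esr1-positive and 12 of 21 Esr1-negative cells. By Esr1 level, all 4 were found in 0 of 5 cells without Esr1, 2 of 16 cells above 0 and below 1 FPKM, 8 of 9 cells from 1 to below 10 FPKM and 21 of 24 cells at 10 FPKM or more. Median Ptn was 1.97, 6.15, 963 and 776 FPKM in these 4 bands and median Lcn2 was 6018, 4673, 13 and 61.2 FPKM.

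The 2 Esr1-negative cells with all 4 hormone markers were numbers 11 and 26. Cell 26 had 1 Esr1 fragment at a depth of 8.08 M fragments, with Cited1 at 341, Ptn at 722 and Foxa1 at 61.8 FPKM, and Kit at 0. Cell 11 had 10 Esr1 fragments, with Cited1 at 451, Ptn at 1266 and Prlr at 232 FPKM, and Lcn2 at 1.80 FPKM. Cells 26 and 11 had hormone-sensing scores of 7.42 and 6.23, beside a median of 7.68 in Esr1-positive and 2.61 in Esr1-negative cells. A score is the mean log2(FPKM + 1) over the list of surface and secreted markers, or over the progenitor list. The first list holds Ly6d, Ptn and Wfdc2, which helped to pick cells 11 and 26. Their high scores are therefore no independent evidence. Without these 2 cells, a choice made after seeing the data, 1185 genes were higher and 376 lower.

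The highest progenitor scores among Esr1-positive cells were those of numbers 47, 52 and 54, whose Wfdc18 was 8212, 9002 and 8410 FPKM. Cells 52 and 54, with Esr1 at 12.1 and 2.42 FPKM, had progenitor scores of 5.86 and 5.78 and hormone-sensing scores of 4.16 and 3.70. Cell 52 nevertheless had all 4 hormone markers at 10 FPKM or more, with Cited1 at 86.6 and Ptn at 55 FPKM, and its hormone-sensing score was above those of all Esr1-negative cells but 11 and 26. Cell 47 had high levels of genes of both lists, with Cited1 at 283, Ly6d at 2056, Trf at 24360 and Csn2 at 20133 FPKM and Esr1 at 2.05 FPKM. The 6 next highest progenitor scores of Esr1-positive cells, 3.97 to 4.97 in cells 6, 45, 31, 32, 37 and 17, also belonged to cells with all 4 hormone markers, beside median progenitor scores of 2.14 in Esr1-positive and 5.48 in Esr1-negative cells. Esr1-negative cell 42, with Esr1 at 0.716 FPKM, had 3 of the 4 hormone markers at 10 FPKM or more beside the highest Elf5 level of its class. Per the labels, capture sites had been checked by microscope for doublets. A doublet caller was not used, and a part of doublets in these cells was not tested.

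**Figure D3:**
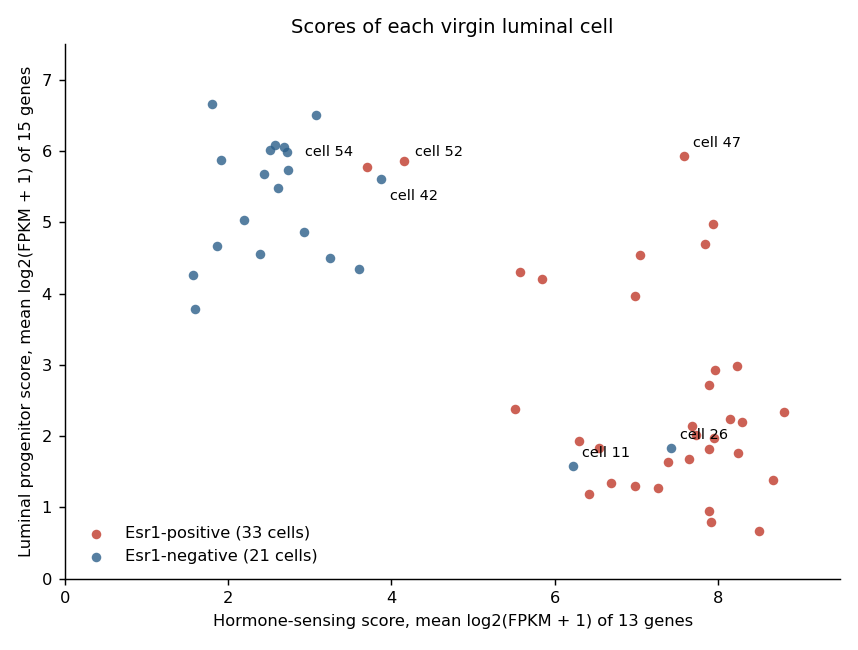
Luminal progenitor score (vertical axis, mean log2(FPKM + 1) of 15 genes) against hormone-sensing score (horizontal axis, mean log2(FPKM + 1) of 13 genes) for each of 33 Esr1-positive and 21 Esr1-negative virgin luminal cells. Most Esr1-positive cells lie at a high hormone-sensing score, with a median of 7.68; the labelled Esr1-negative cells 11 and 26 lie among them, and the labelled Esr1-positive cells 52 and 54 have low hormone-sensing scores for their class, 4.16 and 3.70.

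Of 12 luminal identity genes 4 were higher, 2 lower and the others between the thresholds, with a median of 0.46. Krt18 had medians of 1535 FPKM in Esr1-positive and 1418 FPKM in Esr1-negative cells (0.30) and Epcam differed by -0.02. Krt7, another keratin gene of simple epithelium, had medians of 139 FPKM in Esr1-positive and 5.09 FPKM in Esr1-negative cells (3.70). The tight junction gene Cldn4 (2.67), the ETS factor gene Elf3 (2.09) and Krt19 (1.43) were also higher, and the mucin gene Muc1 (-1.63) and the ETS factor gene Ehf (-1.49) lower. Elf3 differed by 0.66 among cells alike in gene number, and Cldn4 differed by 0.78 as a ratio of mean FPKM.

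Transcription factor genes of luminal cells differed in both directions, with 9 of 27 higher, 5 lower and a median of 0.28, that of all compared genes being 0.27. Of the 27 genes 21 were compared. Beside Tbx3, Foxa1 and Elf3, the ETS factor gene Elf1 was higher by 1.89, with medians of 34.5 FPKM in Esr1-positive and 6.20 FPKM in Esr1-negative cells. The lower members were Klf5 (-1.87), Elf5 (-1.74), Nfib (-1.67), Ehf (-1.49) and Cebpb (-1.30). Of the ETS factor genes named, Elf1 and Elf3 were higher and Elf5 and Ehf lower. Gata3, the regulator gene of luminal differentiation, reached 1 FPKM in 33 of 33 Esr1-positive and 20 of 21 Esr1-negative cells and differed by 0.54.

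In the prolactin and STAT5 pathway, Prlr (3.78), Stat5a (2.04) and Jak2 (1.53), the genes of the receptor, a transcription factor and the kinase that links them, were higher, and Elf5 was lower. The other 7 of 11 members were between the thresholds, and the median was 0.41. Stat5a had medians of 20.1 FPKM in Esr1-positive and 0.391 FPKM in Esr1-negative cells. Its call depended on the Esr1 threshold, with 0.72 where Esr1 of 10 FPKM or more defined the positive class. In the Notch list 2 of 16 genes were higher and 0 lower (median 0.02): the ligand gene Jag1 (2.67) and the target gene Hes1 (1.14). Of the 16 genes 6 were compared, and of all compared genes 15.9% were higher. Hes1 fell below the threshold in several settings, among them pseudocount 10 (0.59) and Esr1 of 10 FPKM or more as positive (0.60). It also did so among cells alike in gene number (0.69) and as a ratio of mean FPKM (0.23). In the ERBB list Areg was the higher member of 13 and 0 were lower (median 0.46), and the list of insulin-like growth factor genes had Igfbp5 as its lower member of 13 and 0 higher (median 0.00). Of each 13, only 6 (ERBB) and 4 (insulin-like growth factors) reached 1 FPKM in enough cells to be compared.

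Secreted proteins with whey acidic protein domains and antimicrobial proteins split between the classes, with 3 of 13 higher and 5 lower (median -0.55). Wfdc2 and Wfdc18, of the same domain family, differed by 6.01 and -4.61. Cxcl15, the gene of a secreted chemokine (3.54), and Slpi, a protease inhibitor gene (1.56), were higher. Ltf, the lactoferrin gene (-2.55), Wfdc3 (-1.98) and Pigr, the gene of the receptor that carries IgA across epithelia (-1.03), were lower beside Lcn2 and Wfdc18. Annexin and S100 genes were higher in 7 of 20 cases and lower in 1 (median 0.74), led by S100a6, Anxa3 (2.62), S100a10 (1.99) and Anxa4 (1.82), with the calprotectin subunit gene S100a8 at -1.31. Anxa4 differed by 0.79 among cells alike in gene number.

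Immediate early and dissociation stress genes, which respond within minutes to tissue handling as well as to growth signals, were higher in 11 of 16 cases and lower in 1 (median 1.32). Fos had medians of 683 FPKM in Esr1-positive and 122 FPKM in Esr1-negative cells (2.83). Atf3 had medians of 150 FPKM in Esr1-positive and 27.6 FPKM in Esr1-negative cells (2.03). Fosb (1.94) and Junb (1.81), which like Fos encode AP-1 subunits, were also among the higher members. The list's score was 4.04 ± 0.81 in Esr1-positive and 2.86 ± 0.98 in Esr1-negative cells, with ranges that overlapped widely, 1.85 to 5.35 in Esr1-positive and 1.35 to 4.81 in Esr1-negative cells. Among cells alike in gene number 7 of 16 were higher, with a median of 0.69. A part of the isolation procedure in this was not tested.

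Of 14 interferon and antigen presentation genes 3 were higher and 0 lower (median 0.29, that of all compared genes being 0.27). These were Ifitm3, the gene of an antiviral membrane protein (3.77), and the immunoproteasome subunit genes Psmb9 (2.54) and Psmb8 (2.24). Of the 14 genes 10 were compared, and of all compared genes 15.9% were higher. Among cells alike in gene number 3 were higher and the list median was 0.03. Ifitm3 differed by 0.30 as a ratio of mean FPKM, with an Esr1-negative maximum of 4542 FPKM; it has close relatives, and reads that match several of them could have been split. Oxidative phosphorylation genes had 5 of 14 higher and 0 lower (median 0.64), led by the complex II subunit gene Sdha (2.46), with Sdhb (1.57) and Atp5b (1.43) also higher. Sdha reached 1 FPKM in 26 of 33 Esr1-positive and 9 of 21 Esr1-negative cells.

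Several lists showed little. Secretory pathway genes had 3 of 17 higher and 0 lower, with a median of 0.05: Srp14 (1.81), Spcs2 (1.41) and Sec61b (1.01). Srp14 differed by 0.15 among cells alike in gene number. Ribosomal protein genes had 0 of 14 past either threshold, with a median of 0.09 that was -0.14 after median-of-ratios scaling; many have processed pseudogenes, and the sources used here do not say how shared reads were treated. The DNA replication and mitosis list had 0 of 18 past either threshold and a median of 0.07. Of these 18 genes only 5 reached 1 FPKM in enough cells to be compared, so for most a difference of 1 was hard to reach. Mki67, a proliferation marker gene, reached 1 FPKM in 7 of 33 Esr1-positive and 3 of 21 Esr1-negative cells. Of 12 housekeeping genes 3 were higher, Sdha, Gusb (1.31) and Hprt (1.03), and Pgk1 was lower (-1.33), with a median of 0.33. Without cell 15, a choice made after seeing the data, Hprt differed by 0.83, Pgk1 by -0.96 and Sec61b by 0.75.

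**Figure D4:**
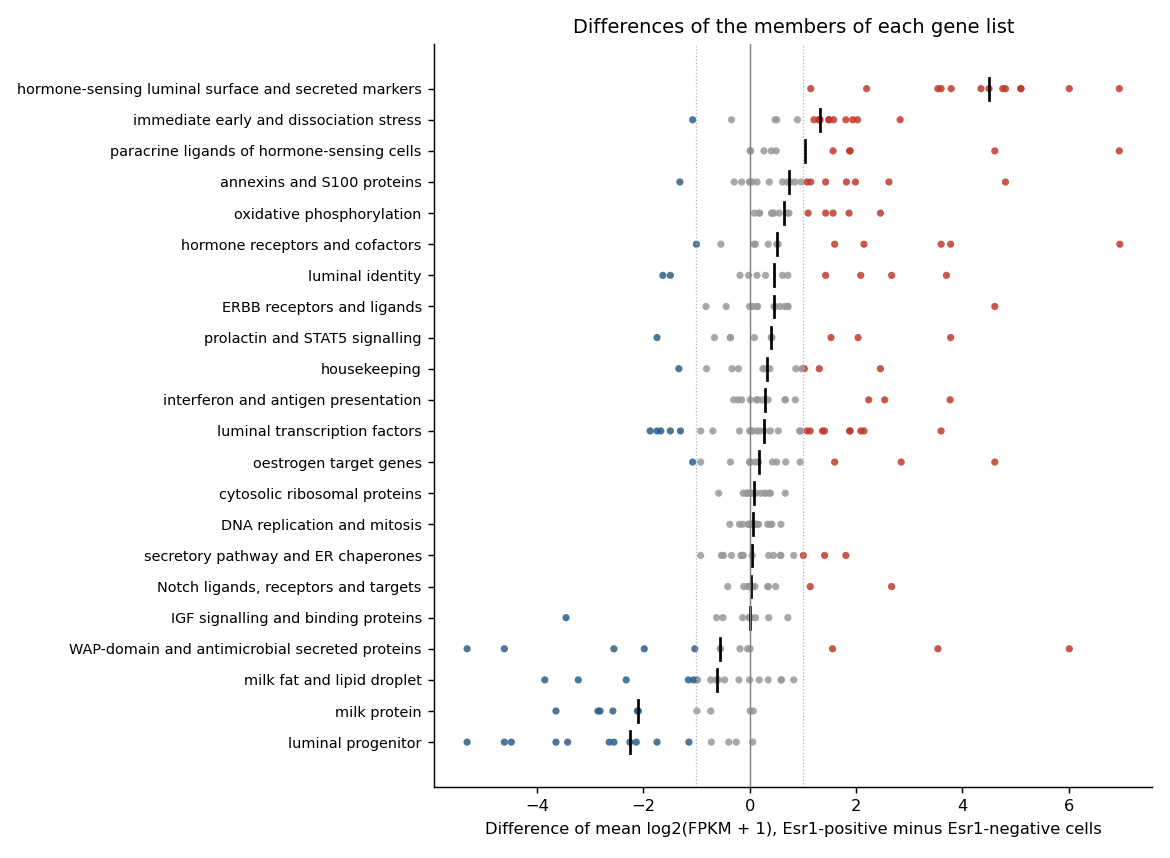
Difference of mean log2(FPKM + 1), Esr1-positive minus Esr1-negative cells (horizontal axis), for each member (points) of 22 gene lists, with the list median as a black bar; red points are at 1 or more, blue points at -1 or less. The surface and secreted markers have the highest median, 4.50, and the luminal progenitor list the lowest, -2.25, while the antimicrobial list spans -5.31 to 6.01.

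Markers of other cell types were found in part of the cells. Of 5 basal markers 2 reached 1 FPKM in each class, and the summed level of the 5 was 0 to 86 FPKM (median 0) in Esr1-positive and 0 to 72.9 FPKM (median 0.784) in Esr1-negative cells. Krt14, a keratin gene of basal cells, reached 1 FPKM in 3 of 33 Esr1-positive and 10 of 21 Esr1-negative cells (-1.43), while Krt5 and Trp63 did not reach it in either. Without the 10 cells at 10 FPKM or more of Krt5, Krt14 or Acta2, of which 2 were Esr1-positive, the progenitor list still had 10 of 15 members lower and a median of -2.05. Dcn, the gene of the matrix proteoglycan decorin, was higher in Esr1-positive cells by 2.15, at 1 FPKM or more in 14 of 33 Esr1-positive and 2 of 21 Esr1-negative cells, with a maximum of 597 FPKM. It was the only fibroblast marker of 6 to reach 1 FPKM in Esr1-positive cells, where the summed level was 0 to 597 FPKM (median 0.108), against 0 to 74.2 FPKM (median 0.0250) in Esr1-negative cells. Col1a2, Col3a1, Pdgfra and Lum stayed below 1 FPKM in both classes. Of 7 immune markers 4 reached 1 FPKM in each class, and their summed level was 0 to 128 FPKM (median 0.563) in Esr1-positive and 0 to 723 FPKM (median 0.915) in Esr1-negative cells, at 10 FPKM or more in 11 of 33 Esr1-positive and 8 of 21 Esr1-negative cells. Summed pericyte markers reached 5.13 FPKM in Esr1-positive and 121 FPKM in Esr1-negative cells, and summed contractile myoepithelial markers 44.7 FPKM in Esr1-positive and 34.4 FPKM in Esr1-negative cells. The part of these markers in the differences was not tested.

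Genes were also ranked by Spearman correlation of their level with that of Esr1 over the 54 cells, as a description without a test. The points share the same gate and both classes enter. Because Esr1 chose the classes, the ranking can repeat the difference between them. It does not show whether a gene rises with Esr1 within a class. The 10 closest were Tbx3 (0.76), Tspan1 (0.75), Cd164 (0.75), Gipc2 (0.73), Tmem56 (0.71), Prlr (0.71), Fgfr2 (0.68), Cldn10 (0.68), Tspan13 (0.67) and Ptn (0.67). Cd164, the gene of a sialomucin, was broadly expressed, with medians of 697 FPKM in Esr1-positive and 67.5 FPKM in Esr1-negative cells. Fgfr2, a fibroblast growth factor receptor gene, had medians of 61.5 FPKM in Esr1-positive and 1.36 FPKM in Esr1-negative cells, and the claudin gene Cldn10 of 52.7 FPKM in Esr1-positive and 0 FPKM in Esr1-negative cells.

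Outside the virgin luminal gate, no cell combined Esr1 at 1 FPKM or more with all 4 hormone markers at 10 FPKM or more. Esr1 reached 1 FPKM in 61.1% of virgin luminal cells (interval 46.9 to 74.1%), 2 of 34 virgin basal cells (5.88%) and 7.84% of pregnant basal cells (8 cells). It did so in 0 of 49 pregnant luminal cells (interval 0 to 7.25%); 3 cells, the limit that a count of 0 allows, would be 6.12%. Of the 8 pregnant basal cells with Esr1, 5 had Ptn at 10 FPKM or more. In pregnant luminal cells Esr1 was above 0 in 11, with a maximum of 0.988 FPKM. Of 49 pregnant luminal cells, 0 reached 1 FPKM of Cited1, Tspan1 or Gipc2, and 1 did so of Areg. Prlr reached 1 FPKM in 34 of 49, at a mean of 2.13 on the log2 scale in pregnant luminal cells, against 6.95 in Esr1-positive and 3.16 in Esr1-negative cells. S100a6 and Ptn were also found in basal cells: S100a6 reached 1 FPKM in 85.3% and Ptn in 64.7% of pregnant basal cells.

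Some genes lower in Esr1-positive cells were higher still in pregnant luminal cells, and others were not. Wfdc18 averaged 6.62 in Esr1-positive, 11.22 in Esr1-negative and 13.64 in pregnant luminal cells on the log2 scale, and Csn2 averaged 8.20 in Esr1-positive, 10.77 in Esr1-negative and 14.16 in pregnant luminal cells. Elf5 averaged 0.51 in Esr1-positive, 2.25 in Esr1-negative and 4.12 in pregnant luminal cells. Cd14, by contrast, averaged 3.63 in Esr1-positive, 7.27 in Esr1-negative and 4.89 in pregnant luminal cells, and Spp1 averaged 8.93 in Esr1-positive, 11.04 in Esr1-negative and 8.38 in pregnant luminal cells. Lcn2 was high in basal cells as well, with a mean of 8.55 in virgin basal cells and of 10.34 in pregnant basal cells.

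**Figure D5:**
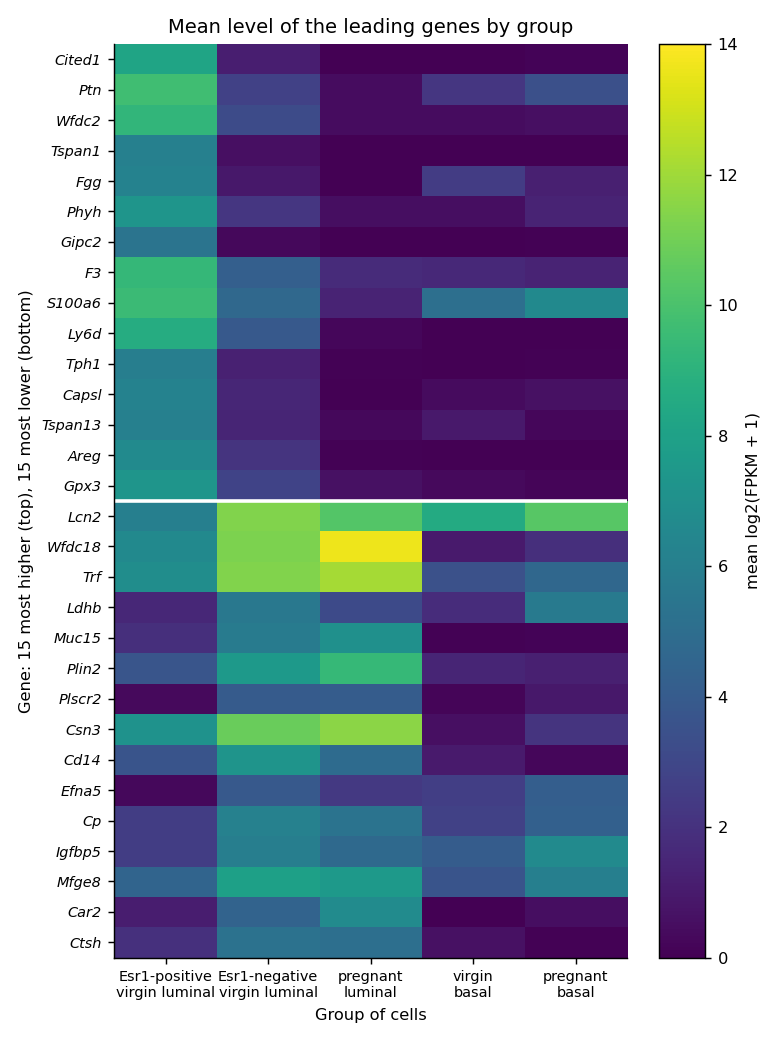
Mean log2(FPKM + 1) (colour) of the 15 genes with the largest excess and the 15 with the largest deficit in Esr1-positive against Esr1-negative cells (rows), in 33 Esr1-positive and 21 Esr1-negative virgin luminal, 49 pregnant luminal, 34 virgin basal and all pregnant basal cells (columns). In pregnant luminal cells, every gene of the upper block averaged 1.70 (F3) or less and every gene of the lower block 2.33 (Efna5) or more.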

How the data were processed

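The authors deposited 1 table of FPKM values, with 18850 genes and 239 cells, each GEO sample being 1 cell and 0 columns lacking a sample. No header names the unit, which rests on the named tools and the look of the values. Reads had passed through Trimmomatic 0.35, TopHat2 2.0.13 and Cufflinks 2.2.1, and the build was GRCm38 (mm10), per the submitters' processing notes. The sources used here give neither the annotation nor the treatment of reads shared by several genes. SMARTer cDNA and Nextera XT libraries were used, per the labels' protocols. Gene coordinates are GENCODE release M21 (GRCm38).

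The members and lists were chosen with earlier results of these data known. Cells were split at Esr1 of 1 FPKM; Esr1 was then left out. Per gene, means over cells of log2(FPKM + 1), with pseudocount 1, were compared for genes that reached 1 FPKM in 10 cells or more. Python 3.11.15, numpy 2.4.6, pandas 2.3.3 and scipy 1.17.1 were used. On simulated data the computation returned a difference that had been added, which checks its arithmetic only. Cells are not replicates, so nothing was tested. Of the 83588 low values below 20 steps, 97.9% were whole multiples of a gene's step within 0.05, and the lengths of 607 single-transcript genes placed a chosen cell at 9.63 M fragments, with gene quartiles of 9.34 and 9.65 M; 1 cell's depth was corrected by a whole factor. Named were the given markers, the 15 largest differences in each direction, up to 4 members of each of 22 lists, 16 genes set in advance and the 10 most like Esr1. Members completing a count of 5 or fewer, members between the thresholds and markers of other cell types were named after their values were seen. Tff1 and Hbb-bt are not in the table used.

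Alternatives were other pseudocounts, gene filters, Esr1 thresholds, scalings, cell subsets and a ratio of mean FPKM.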

Additional observations from a re-analysis of the deposited data

How the results depend on the processing

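The 1070 higher genes became 2108 and 219 with pseudocounts 0.1 and 10, 1888 with any Esr1 above 0 counted as positive (49 against 5 cells), 654 among cells alike in gene number and 1819 with cells rescaled to a common sum. The 330 lower genes became 631 and 91 with pseudocounts 0.1 and 10, 219 with Esr1 of 10 FPKM or more as positive and 688 by log2 ratio of mean FPKM. The other counts stayed within 1.5 times. Among cells alike in gene number, the filter of 10 cells was applied to fewer cells, and 3985 genes were compared in place of 6711. There 16.4% were higher and 12.2% lower, against 15.9% and 4.92% in the main comparison, so the share of lower genes moved more. Over the alternatives the median of the receptor list was 0.29 to 0.87, that of the progenitor list -3.10 to -0.82 (pseudocount 10) and that of the milk protein list -2.55 to -1.35. Rescaling to a sum moved the median over genes to 0.38. With any Esr1 above 0 as positive, Ldhb differed by 0.02, Xdh by 0.18, Stat5a by -0.06 and S100a10 by -0.56, each of opposite sign to its main value. By log2 ratio of mean FPKM, Capsl differed by -1.95 and Xdh by 1.30. The Capsl value rests on cell 15, without which the Esr1-negative mean was 22.8 FPKM, against 185 FPKM in Esr1-positive cells. For the other genes the cause was not tested. Of 79 named genes past the threshold, 59 (pseudocount 10) to 79 stayed past it in the same direction. Cell 15, left out after seeing the data, moved the counts to 974 higher and 395 lower. No paired analysis was possible because the cell numbers only name cells and no result comes from a test. At 9.63 M fragments 1 Esr1 fragment was worth 0.0118 FPKM, so depth sets little limit near 1 FPKM; how much RNA of a cell was captured was not measured.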
